A study of Mus musculus with 12 samples.

Results

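A set of 10 genes that mark fat cells was followed through the hearts of a mouse model of myotonic dystrophy type 1. They were Adipoq, Cfd, Lep, Plin1, Cidec, Plin4, Fabp4, Pck1, Ces1d and Ucp1, chosen by symbol, and they make up 10 of the 51826 rows of the gene count table. RNA-Seq had been performed on atria and ventricles of 3 CUG960 mice (V119, V120 and V123) and 3 control mice (V327, V333 and V334), giving 12 libraries in 4 groups of 3. In CUG960 animals MHCrtTA was hemizygous and TREDT960I, whose human DMPK exons hold 960 interrupted CTG repeats, was homozygous. Controls were hemizygous for MHCrtTA alone. All 6 animals were females of the FvB strain aged 10 weeks, and all received doxycycline (dox) chow from postnatal day 1. The αMHC promoter drives the MHCrtTA transactivator in cardiomyocytes, and control and CUG960 mice came from separate crosses, so that genotype and litter cannot be told apart. How fat around the heart was handled at dissection is not given in the sources used here. Libraries held 116127966 to 160676189 counts, and levels are given in CPM (counts per 1e+06 counts of the library, scaled by TMM factors over the 12 libraries).

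Mature adipocytes store triglyceride in a lipid droplet coated with perilipins, release fatty acids from it on demand, and secrete hormones. Adiponectin (Adipoq), adipsin (Cfd) and leptin (Lep) are secreted almost entirely by these cells. Plin1 and Cidec coat and enlarge their droplet. Plin4, Fabp4, Pck1 and Ces1d are abundant in fat but are also made elsewhere: Plin4 in striated muscle, Fabp4 in capillary endothelium and macrophages, Pck1 and Ces1d in liver. Ucp1 uncouples respiration in brown fat. The mouse heart carries small depots of fat around the great vessels and the atrioventricular groove, next to the atria. In bulk tissue, a lower value may mean fewer cells of a type or less RNA per cell, and these cannot be told apart here.

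The promoters of the 5 members with the most fat-restricted expression are shown. Over the 12 libraries these genes moved together from library to library, Lep least closely, as described further on. Each window runs from 250 bases before the start site to 50 bases after it (RefSeq, GRCm38.p6, written 5′ to 3′ on the strand of the gene), and 8 of the 10 members had an entry. Capitals mark exact matches, on either strand, to AGGTCA (a site bound by nuclear receptors), TTGCGCAA (a palindrome bound by C/EBP factors), CCAAT or TATAAA.
Adipoq, chr16:23146286-23146585, plus strand: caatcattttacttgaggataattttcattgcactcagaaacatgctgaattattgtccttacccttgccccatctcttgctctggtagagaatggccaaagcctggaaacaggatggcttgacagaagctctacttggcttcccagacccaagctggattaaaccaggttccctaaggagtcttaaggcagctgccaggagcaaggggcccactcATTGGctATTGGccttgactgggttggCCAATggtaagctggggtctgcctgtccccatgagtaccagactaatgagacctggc
Cfd, chr10:79890603-79890902, plus strand: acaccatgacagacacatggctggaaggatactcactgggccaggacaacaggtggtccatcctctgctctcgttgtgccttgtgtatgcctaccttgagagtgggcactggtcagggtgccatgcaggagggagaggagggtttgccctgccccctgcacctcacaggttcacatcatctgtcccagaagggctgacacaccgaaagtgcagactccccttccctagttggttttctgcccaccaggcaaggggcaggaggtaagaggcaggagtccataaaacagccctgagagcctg
Plin1, chr7:79732727-79733026, minus strand: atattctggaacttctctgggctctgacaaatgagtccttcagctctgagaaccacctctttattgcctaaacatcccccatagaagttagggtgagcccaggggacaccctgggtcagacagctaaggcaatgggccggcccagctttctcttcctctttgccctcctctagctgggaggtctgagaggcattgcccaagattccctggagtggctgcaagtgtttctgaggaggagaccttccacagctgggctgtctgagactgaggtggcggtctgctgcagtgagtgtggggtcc
Cidec, chr6:113435711-113436010, minus strand: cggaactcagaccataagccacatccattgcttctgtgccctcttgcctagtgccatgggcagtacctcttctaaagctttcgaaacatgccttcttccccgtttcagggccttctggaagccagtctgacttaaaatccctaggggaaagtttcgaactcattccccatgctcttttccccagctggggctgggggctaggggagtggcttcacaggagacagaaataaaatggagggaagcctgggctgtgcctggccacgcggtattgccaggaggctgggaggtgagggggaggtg
Lep, chr6:29059971-29060270, plus strand: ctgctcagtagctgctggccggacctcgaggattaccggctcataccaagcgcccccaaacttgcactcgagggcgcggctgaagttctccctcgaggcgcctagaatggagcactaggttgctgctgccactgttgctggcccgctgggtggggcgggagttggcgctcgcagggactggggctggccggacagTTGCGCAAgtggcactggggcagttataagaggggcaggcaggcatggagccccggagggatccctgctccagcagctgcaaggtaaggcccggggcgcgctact
The Adipoq window holds 3 matches to CCAAT, beginning 34, 27 and 7 bases before the start site, the first 2 of them on the opposite strand. The Lep window holds TTGCGCAA, beginning 55 bases before its start site. The windows of Cfd, Plin1 and Cidec hold 0 matches to these motifs. Among 32851 promoter windows of the same length, 37.4% hold CCAAT, 16.3% AGGTCA, 13.6% TATAAA and 0.183% TTGCGCAA. The element DR1, which is AGGTCA repeated with any 1 base between and so contains that motif, is in 0.0396% of them and in 0 of the members' windows. A match of letters is a description of the sequence only.

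The genes lie apart in the genome (GRCm38, GENCODE M21 annotation, all protein coding). Adipoq spans chr16:23146536-23158028, Cfd chr10:79890853-79892655, Lep chr6:29060220-29073877, Plin1 chr7:79720218-79732903 and Cidec chr6:113424634-113435760. Plin4 spans chr17:56100591-56109803, Fabp4 chr3:10204088-10208576, Pck1 chr2:173153048-173159273, Ces1d chr8:93166068-93197838 and Ucp1 chr8:83290352-83298452. Cidec and Lep share a chromosome, as do Ces1d and Ucp1. Of all stretches of 75 bases in their transcripts, 0% were shared with another gene. Exons of Plin4 overlap those of Hdgfl2 on the opposite strand (listed under its older symbol Hdgfrp2), but that gene held 27.0 to 37.0 CPM in all libraries against 120 to 399 CPM for Plin4.

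The summed level of 7 atrial cardiomyocyte markers was 23229 to 30503 CPM in atria and 126 to 368 CPM in ventricles. Ventricular cardiomyocyte markers summed to 20232 to 24724 CPM in ventricles and to 1632 to 2249 CPM in atria. These sums also differed by genotype in atria, without overlap: the mean atrial sum of CUG960 was 0.830 times and the mean ventricular sum 1.26 times that of controls, and their part in the atrial results was not tested. Some of the 7 atrial markers varied among the ventricular libraries. Myl7, the atrial myosin light chain, held 8.02, 4.98 and 19.3 CPM in control ventricles (V327, V333, V334) and 0.192, 0.304 and 55.9 CPM in CUG960 ventricles (V119, V120, V123). Sln, sarcolipin, held 2.90, 2.99 and 7.84 CPM and 0.213, 0.341 and 18.5 CPM in the same libraries. V123 was the highest and V119 and V120 were the lowest of the 6 ventricles for both, and V123 was also the highest of the 3 CUG960 ventricles for Adipoq, Cfd, Plin1, Cidec and Lep, although for these 5 it lay below or within the controls. The other atrial markers were mixed: Myl4 and Dkk3 were also highest in V123 ventricles (86.3 and 17.3 CPM), whereas Stard10 (31.8 to 45.5 CPM) and Nppa (48.6 to 224 CPM) were highest in V120, and Bmp10 was 0.0343 to 0.275 CPM in the 3 CUG960 ventricles against 2.39 to 3.75 CPM in controls. These markers were chosen after their values had been seen, and their part in the ventricular results was not tested. The table row of Dmpk, the mouse gene whose human counterpart forms part of the transgene, did not separate the genotypes by the test (log2 fold change 0.10 ± 0.06 SE in atria and 0.22 ± 0.10 in ventricles, adjusted p = 0.318 and 0.201, edgeR).

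A pair of control atrial libraries stood apart, V334 by the number of its genes and V333 by how many of them were on adipocyte lists. Among 13103 genes averaging at least 1 CPM over the 6 atrial libraries, V333 atria exceeded every other atrial library by at least 2-fold at 9 genes. Of these 9, 8 were on the lists of adipocyte genes drawn up here: Adipoq, Scd1, Car3, Cidec, Cfd, Plin1, Elovl6 and Fasn. The ninth was Car5b. The same count was 7 for V327 atria, 1 for V119 and 0 for V120 and V123, with 0 adipocyte list genes in each of them. Among 12851 genes in the ventricles it ran from 0 (V120) to 12 (V327), with at most 1 adipocyte list gene in a library. V334 atria exceeded the others at 47 genes, 0 of them on the adipocyte lists. These 47 were led by Fos (113 CPM against at most 2.92), with Egr1, Jun and globin genes among them, and the erythroid marker sum was 2767 CPM there against 323 to 514 CPM in the other atria. This comparison was chosen after the values had been seen, and atrial results are therefore also given without V333 and without V334. The adipocyte lists had also been chosen with earlier results of these data known. Their share of the 13103 genes was not counted, so that 8 of 9 is a description only.

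**Figure D1:**
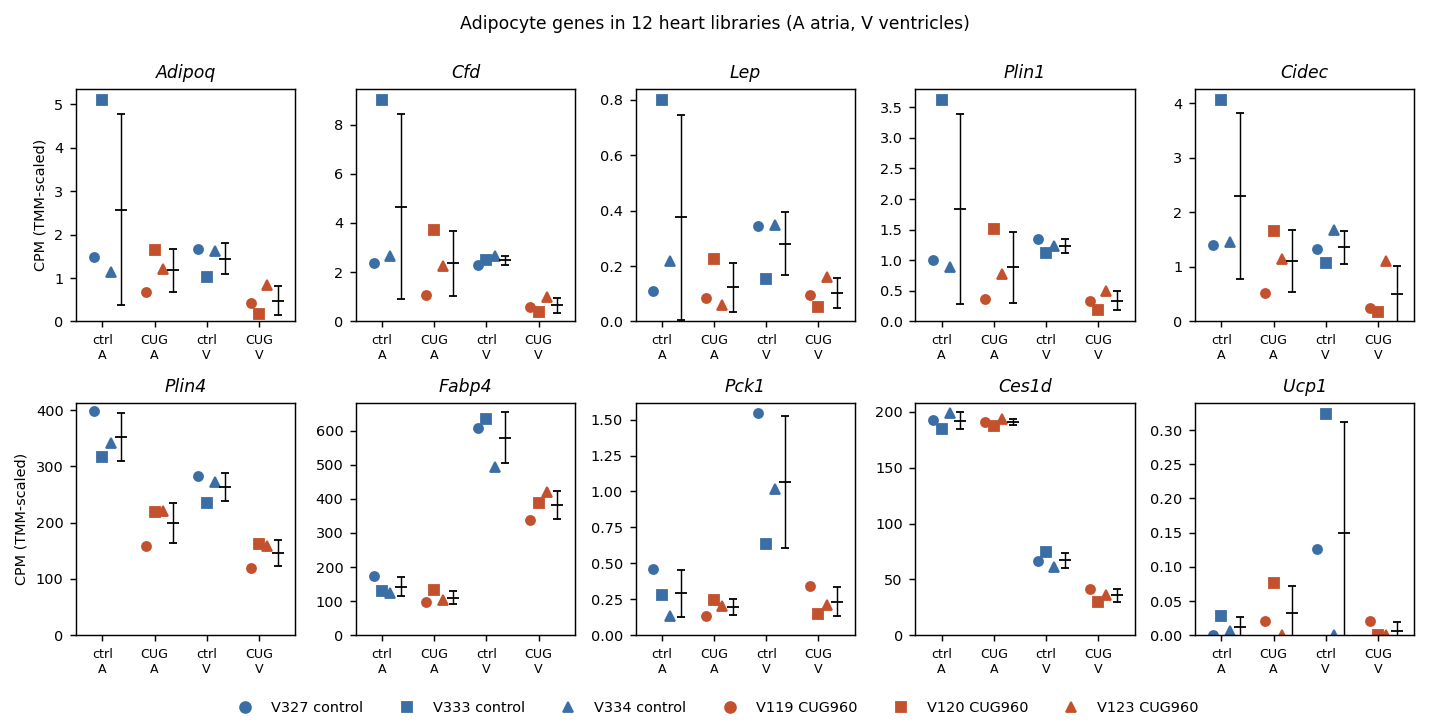
Level of each of the 10 genes (CPM, TMM-scaled, linear axes from 0) in control (blue) and CUG960 (red) atria (A) and ventricles (V), 1 point a library, with the mean and SD of 3 libraries in black (bars that would pass below 0 end there). In V333 atria the 5 genes of the upper row are highest of all 12 libraries, whereas Plin4, Fabp4 and Ces1d are not.

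Levels differed widely among the members. Per kilobase of transcript, control atria held 159 ± 30.1 CPM of Fabp4 (SD, n = 3), 95.8 ± 3.76 of Ces1d and 61.2 ± 7.33 of Plin4. The fat-restricted genes were far lower on the same scale, with Cfd at 5.21 ± 4.19, Adipoq at 2.81 ± 2.40, Cidec at 1.85 ± 1.22, Plin1 at 1.42 ± 1.20 and Lep at 0.204 ± 0.201. Pck1 stood at 0.109 ± 0.0610 and Ucp1 at 0.00715 ± 0.00922. The SDs of Cfd, Adipoq, Cidec and Plin1 overlap, but their order was the same in each of the 3 control atrial libraries. In control ventricles the per-kilobase order was Fabp4 (646 ± 82.9), Plin4 (45.8 ± 4.40), Ces1d (33.5 ± 3.38), Cfd (2.78 ± 0.199) and Adipoq (1.58 ± 0.390). Adipoq, Cfd, Plin1, Cidec and Lep were nonetheless counted in every library, with 7 counts as the lowest single value (Lep, V120 ventricles).

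The secreted proteins come first. Adipoq encodes adiponectin, which raises insulin sensitivity. In control atria it measured 1.48 CPM in V327, 5.11 in V333 and 1.14 in V334, and in CUG960 atria 0.677 in V119, 1.65 in V120 and 1.20 in V123. V333 lies 3.09-fold above the next atrial library, and without it the genotypes overlap closely. In control ventricles Adipoq measured 1.67, 1.04 and 1.63 CPM (V327, V333, V334), and in CUG960 ventricles 0.432, 0.167 and 0.839 CPM (V119, V120, V123). The ventricular groups did not overlap. Mouse V333, highest in atria, was lowest of the control ventricles, and V120 was highest of the CUG960 atria and lowest of the CUG960 ventricles. The log2 fold change of CUG960 against control was -1.13 ± 0.57 (SE) in atria (adjusted p = 0.221) and -1.60 ± 0.47 in ventricles (adjusted p = 0.0634), neither called by edgeR, where a call needs an adjusted p under 0.05 and a fold of at least 1.5. Without V333 the atrial value was -0.15, and without V334 it was -1.49. The ventricular difference was called by DESeq2 (adjusted p = 0.00299) and without V123 (log2 fold change -2.26, adjusted p = 0.0181).

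Cfd encodes complement factor D, a protease of the alternative complement pathway. It measured 2.36, 9.01 and 2.64 CPM in control atria (V327, V333, V334) and 1.09, 3.74 and 2.26 CPM in CUG960 atria (V119, V120, V123). In ventricles the controls held 2.30, 2.51 and 2.66 CPM, within a narrow range, and the CUG960 mice 0.590, 0.391 and 0.999 CPM. Every CUG960 ventricle was thus below every control ventricle, and the mean was 3.77-fold lower. The ventricular log2 fold change was -1.92 ± 0.30 (adjusted p = 0.00511) and passed the test under all 8 other settings and with each of the 6 mice left out. The atrial one was -0.98 ± 0.58 (adjusted p = 0.294), and -0.08 without V333.

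Lep, the hormone that reports fat stores to the hypothalamus, was near the lower end of detection. Control atria held 0.111, 0.798 and 0.217 CPM (V327, V333, V334) and CUG960 atria 0.0838, 0.225 and 0.0588 CPM (V119, V120, V123). Control ventricles held 0.343, 0.152 and 0.348 CPM and CUG960 ventricles 0.0960, 0.0507 and 0.160 CPM, with V123 just above V333. Log2 fold changes were -1.60 ± 0.77 in atria (adjusted p = 0.201) and -1.46 ± 0.50 in ventricles (adjusted p = 0.0993), and neither was called. Without V333 the atrial value was -0.41.

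Plin1 encodes perilipin 1, the gatekeeper of lipolysis on the adipocyte droplet. Control atria held 1.002, 3.62 and 0.886 CPM (V327, V333, V334) and CUG960 atria 0.370, 1.51 and 0.772 CPM (V119, V120, V123). Control ventricles held 1.35, 1.11 and 1.24 CPM and CUG960 ventricles 0.336, 0.188 and 0.496 CPM, without overlap. The ventricular log2 fold change was -1.86 ± 0.33 (adjusted p = 0.00906). It was called with each mouse left out, but not when all 12 libraries shared a fit (adjusted p = 0.0579). In atria it was -1.06 ± 0.63 (adjusted p = 0.303), and -0.09 without V333.

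Cidec promotes the fusion of small droplets into a single large one. Control atria held 1.40, 4.06 and 1.45 CPM (V327, V333, V334) and CUG960 atria 0.524, 1.66 and 1.14 CPM (V119, V120, V123). Control ventricles held 1.33, 1.06 and 1.68 CPM and CUG960 ventricles 0.254, 0.167 and 1.10 CPM. V123 ventricles reached the control range and kept the groups from separating. The log2 fold changes were -1.06 ± 0.51 in atria (adjusted p = 0.202) and -1.43 ± 0.58 in ventricles (adjusted p = 0.160). Without V123 the ventricular value was -2.68 and was called (adjusted p = 0.00286), and without V333 the atrial value was -0.36.

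Plin4 differed from these genes in level and in pattern. It coats small, newly formed droplets and was measured at 399, 316 and 342 CPM in control atria (V327, V333, V334) and at 158, 219 and 220 CPM in CUG960 atria (V119, V120, V123). Control ventricles held 283, 235 and 273 CPM and CUG960 ventricles 120, 161 and 158 CPM. Every CUG960 library lay below every control library of its chamber, and V333 atria was the lowest of the control atria and not the highest. Plin4 fell in both chambers, with log2 fold changes of -0.82 ± 0.14 in atria (adjusted p = 0.00732) and -0.84 ± 0.12 in ventricles (adjusted p = 0.00346). Both calls were kept with each mouse left out in turn. It was the single member called in atria, 1 of the 9 tested, where 5.49% of the 17650 genes tested were called, 2.12% lower and 3.37% higher.

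Fabp4 encodes a carrier of fatty acids in the cytosol. It was higher in ventricles than in atria in every mouse. Atria held 174, 130 and 124 CPM in controls (V327, V333, V334) and 97.7, 132 and 102 CPM in CUG960 (V119, V120, V123), whereas ventricles held 607, 635 and 494 CPM in controls and 337, 387 and 420 CPM in CUG960. The genotypes did not overlap in ventricles, with a log2 fold change of -0.60 ± 0.12 (adjusted p = 0.0137). That value is close to the limit of a 1.5-fold change: the call was lost without V327 (log2 fold change -0.56, adjusted p = 0.0555), without V333 (-0.53) and without V119 (-0.52). In atria the log2 fold change was -0.37 ± 0.15 (adjusted p = 0.142), and the genotypes overlapped.

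Ces1d encodes a carboxylesterase that hydrolyses triglyceride. It was nearly constant in atria, at 192, 184 and 199 CPM in controls (V327, V333, V334) and 191, 188 and 194 CPM in CUG960 (V119, V120, V123). In ventricles it was lower and differed by genotype, with 66.0, 74.3 and 60.8 CPM in controls and 41.4, 30.1 and 36.1 CPM in CUG960. The log2 fold change was -0.90 ± 0.12 in ventricles (adjusted p = 0.00242), called with each mouse left out, and -0.01 ± 0.06 in atria (adjusted p = 0.941).

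Pck1 encodes the cytosolic enzyme that supplies glycerol for re-esterification of fatty acids in fat. Control atria held 0.458, 0.281 and 0.134 CPM (V327, V333, V334) and CUG960 atria 0.133, 0.244 and 0.206 CPM (V119, V120, V123). Control ventricles held 1.55, 0.636 and 1.02 CPM, above all other libraries, and CUG960 ventricles 0.343, 0.145 and 0.208 CPM. The ventricular mean was 4.60-fold lower in CUG960, with a log2 fold change of -2.19 ± 0.41 (adjusted p = 0.0114), and the call was kept with each mouse left out. In atria the log2 fold change was -0.58 ± 0.46 (adjusted p = 0.436).

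Ucp1 was close to absent. Control atria held 0, 5 and 1 counts (V327, V333, V334) and CUG960 atria 3, 12 and 0 (V119, V120, V123). Ventricles held 14, 34 and 0 counts in controls and 3, 0 and 0 in CUG960. Its counts were too few to be tested between genotypes in either chamber with all 6 libraries. A library listed at 0 allows a level of up to 3 counts.

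**Figure D2:**
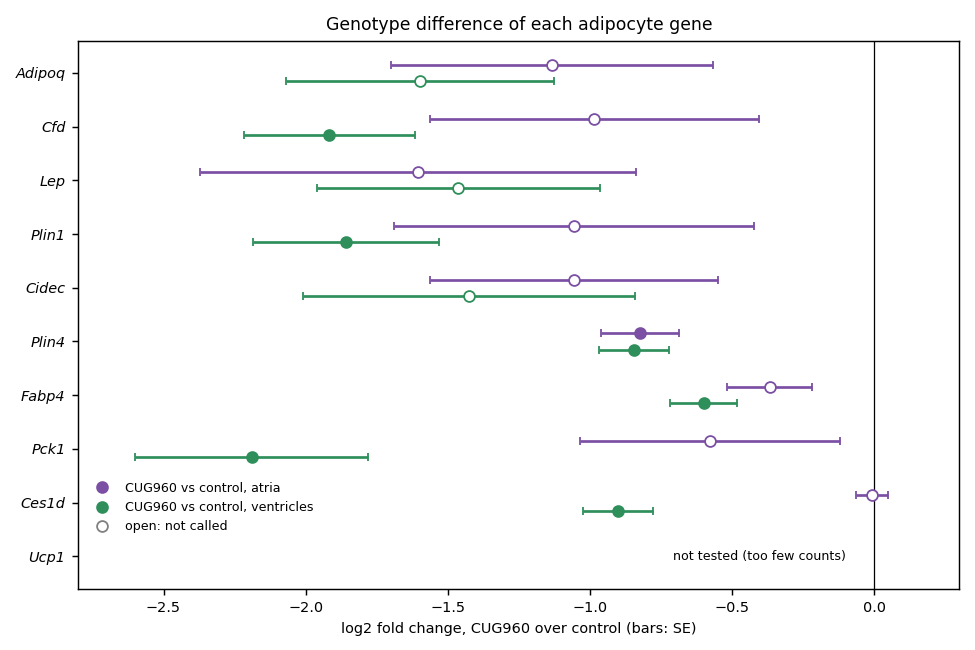
Log2 fold change of CUG960 against control for each gene in atria (purple) and ventricles (green), from edgeR fits to 3 against 3 libraries, with the SE as bars; filled points passed the test. All 9 tested genes lie below 0 in both chambers, with 6 called lower in ventricles and 1 in atria. Among all genes tested, 8221 of 16909 lay above 0 in ventricles and 8583 of 17650 in atria. The shares called lower were 1.76% and 2.12%. In atria Ces1d changed sign with a mouse left out (-0.038 to 0.020), and the median of the 9 was -0.36 without V333.

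Across the members, 6 of the 9 tested were called lower in CUG960 ventricles (Ces1d, Plin4, Cfd, Plin1, Pck1 and Fabp4), where 4.75% of 16909 genes were called, 1.76% lower and 3% higher, and 0 members were called higher. The median log2 fold change of the 9 was -1.46 in ventricles and -0.98 in atria, against -0.01 over all genes tested in each chamber. Without V333 the atrial median was -0.36, and with any other mouse left out it lay between -1.46 and -0.68, while the ventricular median lay between -2.12 and -1.14. With each mouse left out in turn, 1 of 9 was called in atria, and in ventricles 5 of the 9 without V327, V333 or V119, 6 without V334 or V120 and 8 without V123. Ucp1 is left out of these counts. With it, 7 of 10 members were called lower in ventricles without V334, a call of a gene with at most 34 counts in any library. Lep reached the level of the filter in the 3 control libraries of each chamber and in 2 of the 3 CUG960 libraries. The ventricular median of -1.46 is the value of Lep itself, and so rests on a member that passed through the controls. The CUG960 ventricles lay wholly below the controls for 7 of the 9 (the 6 called genes and Adipoq), as they did for 15% of all genes tested. In atria this held for 1 of the 9, Plin4, against 17.2% of all genes.

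The effect of genotype was then compared between chambers in a single fit over the 12 libraries. The difference (atrial minus ventricular log2 fold change) passed the test for Ces1d, at 0.89 ± 0.14 (adjusted p = 0.00989), as for 1.38% of the 18327 genes tested (0.688% above and 0.693% below 0). These were 253 genes, against 74 to 131 with a mouse left out and 660 in DESeq2. The Ces1d call was lost without V327, V333 or V123 (adjusted p = 0.0565, 0.0622 and 0.0541), with the value between 0.77 and 1.01 over all mice left out. For the other 9 members it was not called. The difference was 0.47 ± 0.83 for Adipoq, 0.94 ± 0.74 for Cfd, 0.81 ± 0.81 for Plin1 and 0.02 ± 0.21 for Plin4. A fall in ventricles and not in atria was therefore not shown for the fat-restricted genes.

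Between atria and ventricles of the same animals, Ces1d and Fabp4 had the smallest adjusted p of the members in both genotypes. In controls, Ces1d was higher in atria by 1.52 ± 0.10 on the log2 scale (adjusted p = 6.72e-08), and Fabp4 lower by a log2 fold change of -2.02 ± 0.15 (adjusted p = 1.99e-07). Pck1 was also lower in control atria, at -1.87 ± 0.46 (adjusted p = 0.00368). Ucp1 passed the test as lower (adjusted p = 0.0393), but its call rests on 14 and 34 counts in V327 and V333 ventricles, and it was lost without either mouse (adjusted p = 0.142 and 0.145), without V119 (0.0618) and in DESeq2 (0.0533). In all, 1 member was called higher in control atria and 3 lower, where 18.5% and 16.5% of all genes were (35% in either direction). In CUG960 mice, Ces1d was higher in atria by 2.41 ± 0.11 and Fabp4 lower at -1.79 ± 0.15. Cfd was also higher, by 1.85 ± 0.55 (adjusted p = 0.0123), a call lost without V120 (log2 fold change 1.08, adjusted p = 0.185). That made 2 higher and 1 lower, where 17.3% and 15.8% of all genes were (33.1% in either direction). Adipoq and Plin1 stood above their own ventricles in 3 of 3 CUG960 mice, with log2 fold changes of 1.304 ± 0.610 and 1.39 ± 0.59 that were not called (adjusted p = 0.0884 and 0.0650). In controls they did so in 1 of 3, the mouse V333.

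The fat-restricted genes moved together from library to library. Over the 12 libraries, the Pearson correlation of log2 CPM with Adipoq was 0.97 for Cidec, 0.97 for Plin1, 0.96 for Cfd and 0.82 for Lep. It was 0.70 for Plin4, 0.60 for Ces1d, 0.37 for Pck1, 0.24 for Ucp1 and -0.25 for Fabp4. These values are descriptive, since the points share animals, chambers and genotypes. Among the 5 atrial libraries other than V333, the correlation with Adipoq was still 0.97 for Plin1, 0.94 for Cidec and 0.93 for Cfd, and 0.45 for Lep, below Fabp4 (0.71), Pck1 (0.71) and Plin4 (0.59), while Ces1d was at -0.22. Over the 6 ventricular libraries, where the genotypes differ, it was 0.94 to 0.97 for Cfd, Cidec, Plin1 and Lep, 0.86 for Pck1, 0.82 for Ces1d, 0.75 for Plin4 and 0.72 for Fabp4. In each library, Cfd was 1.19 to 2.42 times, Plin1 0.546 to 1.13 times and Cidec 0.587 to 1.31 times the CPM of Adipoq, ranges of 2.03-, 2.07- and 2.24-fold. The ratio of Plin4 to Adipoq ranged 15.6-fold and that of Fabp4 91.6-fold. Over the 12 libraries Cfd, Plin1 and Cidec were thus closest to Adipoq, and the other members were nearer to it within ventricles than over both chambers.

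**Figure D3:**
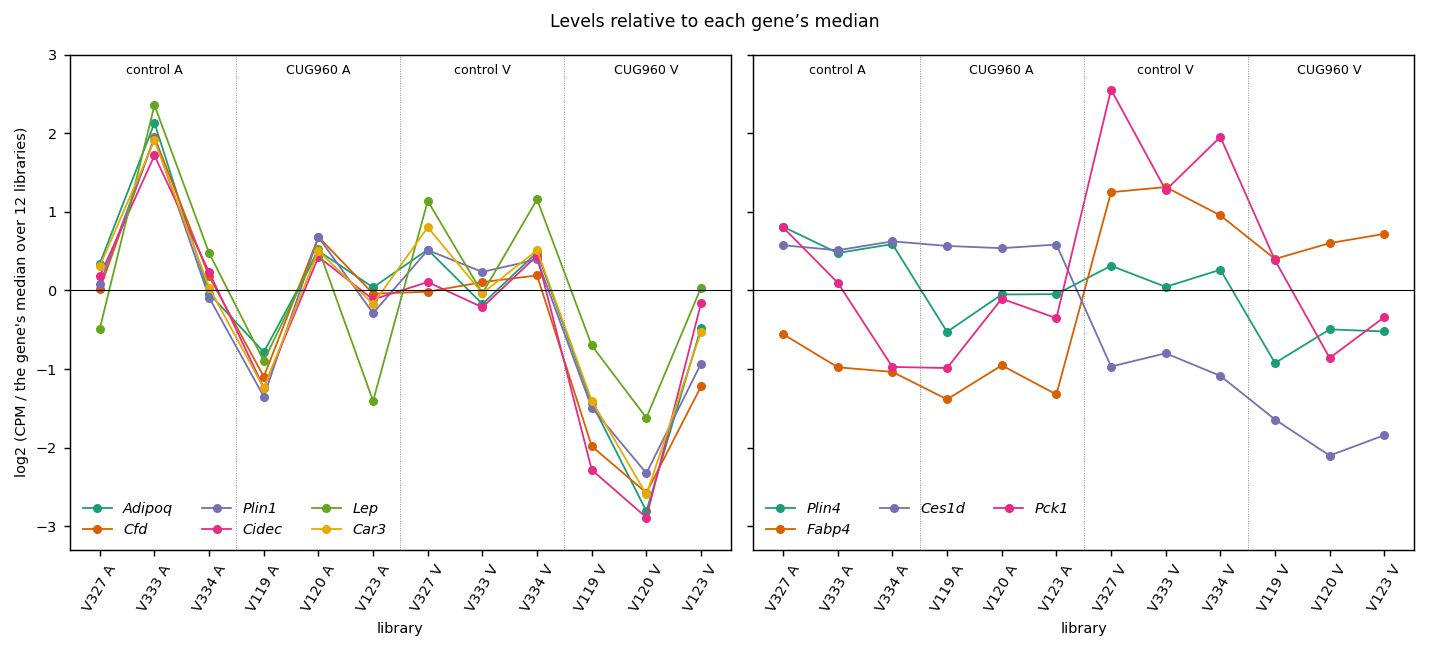
Level of each gene in each library (log2 of CPM over the gene's median across 12 libraries), with fat-restricted genes and Car3 on the left and Plin4, Fabp4, Ces1d and Pck1 on the right. On the left the lines run together, peak in V333 atria and are lowest in V120 ventricles, with Lep departing most, and on the right they do not follow each other.

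Among 13111 genes averaging at least 1 CPM, the gene most like Adipoq over the 12 libraries was Car3 (r = 0.99), a carbonic anhydrase abundant in adipocytes. Cidec, Plin1 and Cfd came next, then Car5b (0.93), a mitochondrial carbonic anhydrase, Gm10069 (0.91), Klhl4 (0.91), Baz1b (0.90), Mtcp1 (0.90) and Ythdf3 (0.89). Over the 6 atrial libraries Car3 and Plin1 led again (both 0.98), followed by Caskin2, Cfd, Adam10, Gm9797, Fam129b, Hey1, Nr6a1 and Cidec (0.96 to 0.97). Car3 measured 10.0, 30.4 and 8.30 CPM in control atria (V327, V333, V334) and 3.42, 11.5 and 7.18 CPM in CUG960 atria (V119, V120, V123). Control ventricles held 14.1, 7.90 and 11.5 CPM of Car3 and CUG960 ventricles 3.07, 1.34 and 5.63 CPM, without overlap, and its log2 fold change in ventricles was -1.74 ± 0.42 (adjusted p = 0.0317). That call was lost without V327, V334 or V119 (adjusted p = 0.0953, 0.0628 and 0.0934) and with all 12 libraries in one fit (0.0664), and since Car3 was picked here for its likeness to Adipoq over these libraries, it is not separate evidence.

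Genes of the adipocyte were also taken from 5 lists, which hold members as well as other genes. The ventricular calls of Cfd, Plin4, Plin1, Pck1, Ces1d and Fabp4 therefore recur in the counts of these lists. For these genes the counts are not separate evidence. Of 12 adipokines and secreted proteins (including Adipoq, Lep and Cfd), 3 were called lower in CUG960 ventricles and 1 in atria, and 0 higher. The 3 were Cfd, Rbp4 and Retn, the last with a limit given below. Over all genes tested, 1.76% were called lower in ventricles and 2.12% in atria. Resistin (Retn) held 0.389, 0.389 and 0.348 CPM in control ventricles and 0.0549, 0.0507 and 0.168 CPM in CUG960 ventricles, a log2 fold change of -2.05 ± 0.47 (adjusted p = 0.0268). In atria Retn followed Adipoq, with 2.30 CPM in V333 against 0.237 to 0.868 CPM in the other libraries. Rbp4, the plasma carrier of retinol, fell in both chambers (-0.89 ± 0.21 in atria and -1.04 ± 0.24 in ventricles, adjusted p = 0.0275 and 0.0256). Retn passed the filter on low counts through the control libraries alone, so that its call as lower carries no weight. The Retn call was also lost without any single mouse but V123 (highest adjusted p = 0.0960, without V120) and with all 12 libraries in one fit (0.0762). The Rbp4 calls were lost without V333, V334, V119 or V123 in atria (highest 0.101) and without V327, V334, V119 or V120 in ventricles (highest 0.0866).

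Of 16 lipid droplet and lipolysis genes, 4 were called lower in ventricles (Mgll, Plin4, Plin1 and Plin5), 1 in atria (Plin4), and 0 higher. The share of all genes called lower was 1.76% in ventricles and 2.12% in atria. Mgll, which completes lipolysis by cleaving monoglyceride, fell from 295, 250 and 257 CPM to 140, 136 and 166 CPM in ventricles (log2 fold change -0.86 ± 0.10, adjusted p = 0.00120), with each mouse left out as well. Plin5, the perilipin of oxidative muscle, held 148, 145 and 125 CPM in control and 62.3, 99.7 and 85.7 CPM in CUG960 ventricles (-0.76 ± 0.15, adjusted p = 0.0158), a call lost without V327 (0.0558).

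Of 20 genes of fatty acid and triglyceride synthesis, 19 were tested between genotypes, with 3 called lower in ventricles (Aqp7, Pck1 and Scd1) and 1 in atria (Aqp7). For all genes the share called lower was 1.76% in ventricles and 2.12% in atria. Aqp7, the channel through which glycerol leaves and enters fat cells and cardiomyocytes, fell in ventricles from 19.6, 19.1 and 21.6 CPM to 10.8, 10.1 and 12.4 CPM (log2 fold change -0.85 ± 0.11, adjusted p = 0.00161). In atria it fell by 0.90 on the log2 scale (adjusted p = 0.0140), a call lost without V119 (0.0562). Scd1, the desaturase that makes oleate, was lower in ventricles at -1.03 ± 0.27 (adjusted p = 0.0449), a call lost in DESeq2 (0.0690), with all 12 libraries in one fit (0.125) and without V327, V334, V119 or V120 (highest adjusted p = 0.152). In V333 atria Scd1 reached 221 CPM against 39.0 to 82.5 CPM in the other atria, and Fasn, fatty acid synthase, 131 CPM against 46.2 to 60.2 CPM.

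Of 13 adipogenic transcription factors, 1 was called lower in each chamber. Among all genes tested, 5.49% were called in atria (2.12% lower) and 4.75% in ventricles (1.76% lower). Mlxipl (ChREBP, the carbohydrate-responsive activator of lipogenic genes) fell in ventricles at -0.80 ± 0.09 (adjusted p = 0.000873), and Zfp423, which commits cells to the fat lineage, in atria at -0.71 ± 0.17 (adjusted p = 0.0296), a call lost without V327, V333, V119 or V123 (highest 0.103). Pparg, the master regulator of fat cells, held 2.60 to 3.14 CPM over all 6 atria, with 2.81 CPM in V333, where Adipoq was highest. In ventricles it held 9.86, 9.11 and 10.3 CPM in controls and 5.08, 7.78 and 7.84 CPM in CUG960, without overlap, a log2 fold change of -0.50 ± 0.16 that was not called (adjusted p = 0.0860). Of 22 other adipocyte-enriched genes in the table (5 not tested in ventricles), 6 were called lower in ventricles and 1 higher, and 0 in atria. In ventricles 1.76% of all genes tested were called lower and 3% higher. Aoc3, an amine oxidase of fat and smooth muscle, fell at -0.66 ± 0.13 (adjusted p = 0.0120), a call lost without V334. The other 5 called lower were Ces1d, Fabp4, Car3, Adig and Pnpla3. The Adig call was lost without any single mouse but V123 (highest adjusted p = 0.0975, without V327) and the Pnpla3 call without any but V327 (highest 0.127, without V120), and both with all 12 libraries in one fit (0.153 and 0.170). Npr3, the clearance receptor for natriuretic peptides, rose at 0.68 ± 0.09 (adjusted p = 0.00212).

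Between the chambers of control mice, 18.5% of all genes were higher and 16.5% lower in atria. Of the 12 secreted proteins, 5 were higher and 0 lower, led by angiotensinogen (Agt, 3.22 ± 0.14 on the log2 scale), chemerin (Rarres2, 2.53 ± 0.18), Apoc1 (3.91 ± 0.34) and Rbp4 (1.37 ± 0.22). Of the 16 lipid droplet genes, 0 were higher and 7 lower, led by Abhd5, the co-activator of triglyceride lipase (-1.04 ± 0.06), Plin3 (-1.46 ± 0.09), Plin5 (-2.51 ± 0.16) and Fitm1 (-1.47 ± 0.11). The other 3 lists were mixed. Of the 20 synthesis genes, 6 were higher and 9 lower, led by Dgat2, which completes triglyceride (-2.30 ± 0.11), Aqp7 (-2.70 ± 0.15), Me1 (-0.89 ± 0.08) and Gpam (-1.61 ± 0.15). Of the 13 transcription factors, 2 were higher and 3 lower, with Prdm16 (-3.21 ± 0.22) and Pparg (-1.70 ± 0.15) below and Nr1h3 (0.82 ± 0.08) and Cebpa (1.59 ± 0.16) above 0. Of the 22 other adipocyte-enriched genes, 6 were higher and 8 lower, led by Npr3 (3.55 ± 0.12), Lpl, which frees fatty acids from lipoproteins (-1.71 ± 0.10), Ces1d and Fabp4. The adjusted p of the genes named in these 5 counts was at most 0.000167 (Rbp4). No test compared the lists with each other.

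Markers of other cell types were measured beside the members, since dissected pieces can hold neighbouring tissue. For the counts of these lists, 2.12% of all genes tested were called lower and 3.37% higher in CUG960 atria. In ventricles 1.76% were called lower and 3% higher. Of the 15 brown adipocyte genes, 8 were tested in atria and 7 in ventricles, and 0 were called between genotypes. Their summed CPM was 509.9 ± 37.0 in control and 571 ± 47.7 in CUG960 atria, and 1347 ± 227 and 1206 ± 88.8 in ventricles, with Cox7a1, which cardiomyocytes also express, as the most abundant. In V333 atria the brown list summed to 499 CPM, within the range of the other atria (479 to 605). The 8 adipose progenitor genes, led by Cd34, summed to 387 ± 19.8 in control and 299 ± 19.0 CPM in CUG960 atria, and to 409.9 ± 7.60 and 331 ± 11.8 CPM in ventricles, lower in every CUG960 library. Of these 8, 1 was called lower in atria (Pi16, a call lost without V119 or V123) and 1 higher (Cd24a), and 0 of the 7 tested in ventricles. Mesothelial and epicardial genes, led by Upk3b in atria, marked the chamber: all 11 were called higher in atria in both genotypes. Between chambers, 18.5% of all genes tested were called higher in atria in controls and 17.3% in CUG960. The 11 genes summed to 387 ± 16.1 and 363 ± 83.9 CPM in control and CUG960 atria against 14.9 ± 1.46 and 11.7 ± 2.45 CPM in ventricles. Of the 11, 0 were called between genotypes in atria and 1 of 10 in ventricles (Aldh1a2, lower, a call lost without V327, V333, V120 or V123). V333 atria, at 402 CPM, was within the range of the other atria for this list (268 to 424).

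The summed level of capillary endothelial genes was lower in every CUG960 library of both chambers. The sum, led by Pecam1 in control atria and by Aqp1 in the other groups, was 850.4 ± 42.2 CPM in control and 634 ± 30.1 CPM in CUG960 atria, and 1317 ± 105 and 1041 ± 52.8 CPM in ventricles, with no overlap of genotypes in either chamber. Of the 11 genes, 10 had a negative log2 fold change in atria and 11 in ventricles, and 2 (Pecam1 and Tek) and 1 (Car4) were called lower. Among all genes tested, 8583 of 17650 lay above 0 in atria and 8221 of 16909 in ventricles, and 2.12% and 1.76% were called lower. The Tek call was lost without V327, V333 or V119 and the Car4 call without V120. Pecam1, an adhesion molecule of endothelium, fell in atria at -0.71 ± 0.10 (adjusted p = 0.00431). The part of this list in the lower Fabp4 level was not tested. Fibroblast genes, led by Dcn, summed to 2119 ± 194 and 1778 ± 142 CPM in control and CUG960 atria and to 1228 ± 91.6 and 1190 ± 50.3 CPM in ventricles, with 0 of 7 called between genotypes. Smooth muscle genes, led by Acta2, summed to 247 ± 60.9 and 307 ± 102 CPM in atria and 251 ± 42.5 and 226 ± 55.9 CPM in ventricles, with 1 of 5 called higher in CUG960 atria (Tagln) and 3 lower in CUG960 ventricles (Mylk, Myh11 and Tagln). The Tagln call in atria was lost without V333, V334, V119 or V123. In ventricles 0 of the 5 were called without V327, V334 or V123, 1 without V119 or V120, and 3 without V333.

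Leukocyte genes, led by Lyz2, summed to 484 ± 212 CPM in control atria, where V334 held 728 CPM, and to 393 ± 35.3 CPM in CUG960 atria, and to 173 ± 21.3 and 161 ± 19.6 CPM in ventricles, with 0 of 11 called. Erythroid genes, led by Hbb-bs in ventricles and Hba-a1 in atria, summed to 2301 ± 552 and 1616 ± 508 CPM in control and CUG960 ventricles and to 1201 ± 1359 and 372 ± 60.8 CPM in atria, with 0 of 6 tested called. Dbh, the noradrenaline-synthesizing enzyme of sympathetic nerves, fell in both chambers (-1.24 ± 0.18 in atria and -1.48 ± 0.28 in ventricles, adjusted p = 0.00448 and 0.0110), the ventricular call being lost without V120 (0.0541). Skeletal muscle genes summed to 768 ± 111 and 381 ± 163 CPM in ventricles, almost all of it Acta1, which the heart also makes, and to 10.1 ± 5.40 and 5.63 ± 1.86 CPM in atria. Of these, 1 of 5 tested was called lower in atria (Tnnt3). In ventricles Pvalb and Myod1 passed the filter on low counts through the CUG960 libraries alone, with at most 62 and 40 counts in any library, so that their calls as higher carry no weight. Thymus and lymphocyte genes summed to 1.12 to 4.30 CPM over all 12 libraries, led by Lck, and lung epithelial genes to 0.224 to 1.27 CPM, led by Napsa, and 0 genes of either list were called between genotypes. Among cardiomyocyte markers, Nppa was called higher and Bmp10 lower in CUG960 ventricles, and Hey2 lower in atria. The Nppa call was lost without V327, V333, V120 or V123 and the Hey2 call without any single mouse but V123. Bmp10 was called with each mouse left out. It reached the level of the filter in 3 control but only 2 CUG960 ventricles, so that this call carries no weight either. The surfactant genes Sftpb, Sftpa1 and Sftpd and the lung marker Lamp3 held at most 3 counts in every library.

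**Figure D4:**
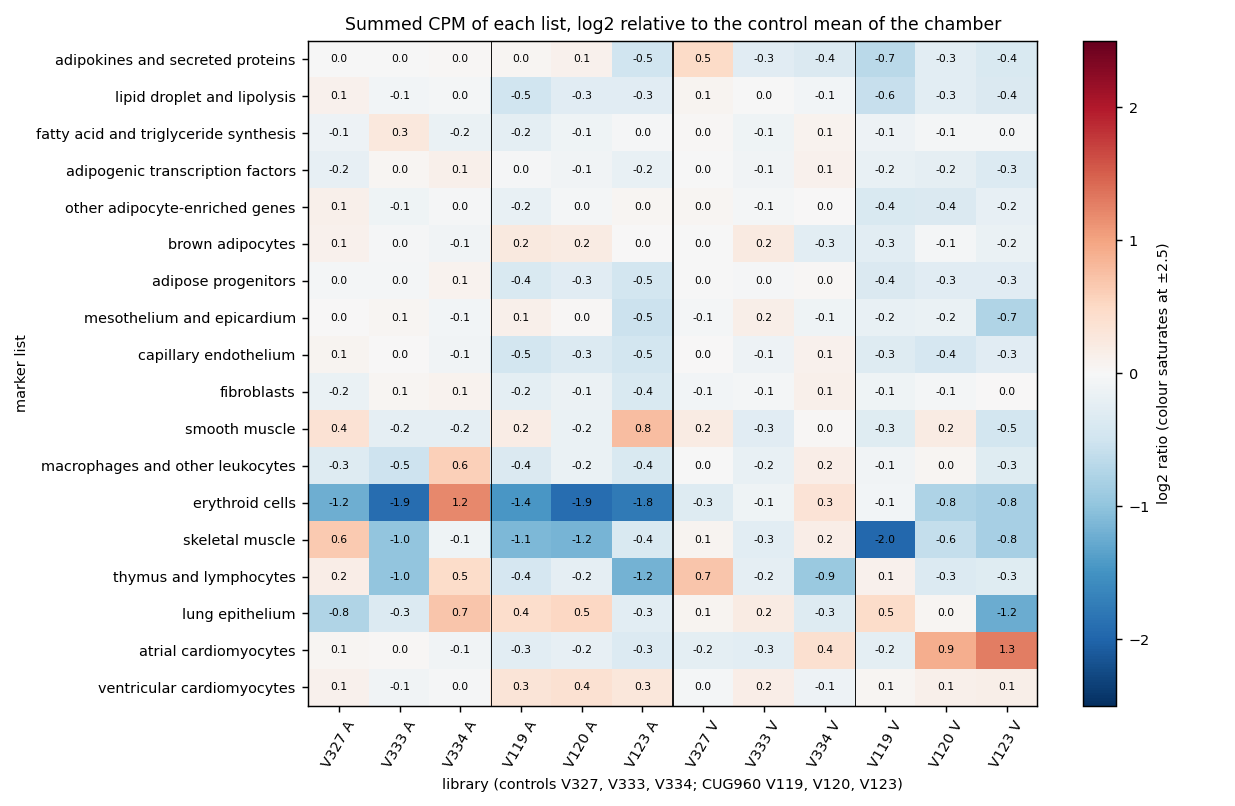
Summed CPM of 18 marker lists in each library, as log2 over the mean of the 3 control libraries of the same chamber (numbers in the cells, red higher, blue lower). The lipid droplet, capillary endothelium and adipose progenitor lists are lower in every CUG960 library than in any control library of the chamber, and the erythroid list stands out in V334 atria.

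The part of fat attached to the dissected chambers in these results was not tested. In V333 atria Adipoq, Cfd, Plin1, Cidec, Lep, Retn, Car3, Scd1 and Fasn were the highest of the 6 atria, whereas Plin4, Fabp4, Pck1, Ces1d, Pparg and the brown adipocyte sum were not. Without V333 the atrial log2 fold changes of the first 5 lay between -0.41 and -0.08, against -1.60 to -0.98 with it. Without V334 they lay between -1.88 and -1.27, and 0 of the 5 were called in either case. In ventricles, leaving out V333 kept Cfd, Plin1, Plin4, Pck1 and Ces1d among the calls, and leaving out V123 added Adipoq and Cidec.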

How the data were processed

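RNA-Seq of poly(A)-selected RNA had been performed by the authors on 12 libraries from atria and ventricles of 6 mice. Per the labels and the study's methods, reads were mapped to mm10/GRCm38 and counted with RSEM 1.3.1, and the authors deposited 1 table of expected counts per gene, all whole numbers, not scaled or filtered. The members and gene lists were chosen with earlier results of these data known. Trarg1 was not found under that symbol, and Itgam has 2 rows, kept apart.

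Genotypes were compared within each chamber (6 libraries) and chambers, as well as the chamber difference of the genotype effect, over 12 libraries in 4 groups, with the quasi-likelihood test of edgeR 4.0.16 in R 4.3.3 (filterByExpr, TMM). P-values were adjusted over all genes tested (Benjamini-Hochberg), and genes with an adjusted p under 0.05 and a fold of at least 1.5 were called; no fold limit was set for the chamber difference. Levels are CPM scaled by TMM over the 12 libraries, and correlations used log2 CPM with a prior count of 2. The text names all members, up to 4 called genes of an adipocyte list by smallest p between genotypes and between control chambers, up to 2 of a cell type list between genotypes, the most abundant gene of each cell type list, and the 10 genes most like Adipoq; Fasn, Car3's values, Adig, Pnpla3 and the genes of single atrial libraries were chosen after their values had been seen. Intervals between replicates rest on 3 mice a group. Alternatives were DESeq2 1.42.0, RLE and upper quartile scaling, other filters and fold limits, all 12 libraries in one fit, the mouse as a block, each mouse left out, and sums without TMM. The scripts were tested on simulated data. The summed level of a further marker list is not reported here.

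Atrial and ventricular libraries with the same number came from the same animal. Correlations of their deviations from the group means over genes were 0.135 for V327, 0.0815 for V333, 0.0537 for V334, 0.0302 for V119, 0.111 for V120 and 0.0925 for V123.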

Additional observations from a re-analysis of the deposited data

Results flagged for a closer look

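Genes on the lists whose CUG960 effect differed between the chambers by the test of the difference itself (atrial minus ventricular log2 fold change, edgeR, 12 libraries) were 7. Among the members it was Ces1d, at 0.894 (adjusted p = 0.00989). Among other adipocyte genes it was Mlxipl at 0.753 (adjusted p = 0.0120), Npr3 at -0.751 (0.0293) and Cav1 at 0.520 (0.0303). Among markers of other cells it was Bmp10, an atrial growth factor, at 4.10 (0.00208), Tagln of smooth muscle at 1.85 (0.0445) and Nppa, atrial natriuretic peptide, at -1.72 (0.0494). Of these, Bmp10 alone passed with each mouse left out, and the other 6 were lost with at least 1 mouse, Cav1 with any of them (highest adjusted p = 0.179, without V333). The Bmp10 difference includes its ventricular levels, which reached the level of the filter in 3 control but only 2 CUG960 libraries. Its ventricular call was given no weight above, and the same limit holds for this difference. Groups of 3 libraries were too small for a test of single outlying libraries.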

How the results depend on the processing

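Without a fold limit, called genes rose to 2573 (atria), 1680 (ventricles), 10268 (chambers in controls) and 9952 (chambers in CUG960), and at a log2 fold change of at least 1.5 they were 216, 199, 2462 and 2361, where 0 members remained in atria and 3 in ventricles. DESeq2 gave 660 genes for the chamber difference of the CUG960 effect, against 253. With no filter on low counts 5 members were called between CUG960 chambers, where 6202 of 29861 genes were. Between genotypes in ventricles 9 members were then called, where 1024 of 27223 genes were. Leaving out each mouse gave 74 (without V333) to 131 genes (without V334) for the chamber difference, 0 to 1 members for it, and 2 (without V120) to 5 (without V333) members between CUG960 chambers. Signs changed with a mouse left out, always for values that were not called, over ranges of -0.038 to 0.020 for Ces1d between genotypes in atria. Between control chambers these were -0.34 to 1.28 for Adipoq, -0.45 to 0.94 for Plin1, -1.07 to 1.02 for Lep and -0.075 to 1.19 for Cidec, each negative only without V333. Between CUG960 chambers they were -0.71 to 0.34 for Pck1, -0.82 to 1.07 for Lep and -0.027 to 5.47 for Ucp1. For the chamber difference they were -1.24 to 1.34 for Lep, -0.030 to 0.067 for Plin4, -0.46 to 1.61 for Cidec, -0.27 to 1.63 for Adipoq and -0.12 to 1.83 for Plin1. With the mouse as a replicate block, the members called remained 4 and 3 in number between control and CUG960 chambers and 1 for the chamber difference, Lep changed sign in the chamber difference (0.18, not called), and the block changed no call of a member. The cause of these changes was not tested.

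Without TMM, the median log2 ratio of all genes moved by 0.11 between genotypes in ventricles, and between chambers by 0.45 in controls and 0.38 in CUG960; among the members Pck1 then changed direction between CUG960 chambers (-0.26 to 0.12). The ventricular ratio of CUG960 to control sums moved to 1.02 for fatty acid and triglyceride synthesis, 0.866 for other adipocyte-enriched genes and 0.870 for adipose progenitors. Each group held 3 mice. Ucp1 had at most 34 counts in any library, Lep as few as 7, Pck1 19, Adipoq and Cidec 23 and Plin1 26, so that counting error also bears on these members.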
